A study of Mus musculus with 8 samples.

Results

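The genes described here are 37 components of mouse DNA replication and S phase, chosen by name, out of 55401 gene identifiers in the deposited count table. All 37 symbols were found in the table, and all 37 passed the filter on low counts that left 16964 genes for testing. RNA was sequenced from 8 libraries labelled as airway cells, taken on day 10 after tamoxifen. Every animal carried a Cre recombinase under the promoter of Scgb1a1, which encodes a protein that club cells, the secretory cells of small airways, release in bulk. Recombination is thus directed at cells in which that promoter is active. Which cells of a library recombined is not shown by the labels. The 4 control libraries had the genotype Scgb1a1cre; Cdh1F/+, with 1 floxed allele of the E-cadherin gene Cdh1, and the 4 libraries called mutant after their labels had Scgb1a1cre; Cdh1F/F. The series text describes depletion of immune and endothelial cells, selection on EPCAM and a sort on GFP, and the sorted fraction is not given for any library. The labels do not state whether each library is a different animal, and the p-values therefore reflect library-to-library spread, which may be technical.

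DNA replication begins at origins that are licensed in G1, when Cdc6 and Cdt1 load the ring-shaped MCM helicase, made of Mcm2 to Mcm7, onto DNA. On entry into S phase, cyclin E with its kinase and the E2F transcription factors turn on the replication genes, and Cdc45, the GINS complex and Mcm10 convert the loaded helicase into a moving fork. Polymerases, the sliding clamp Pcna, its loader and DNA ligase then copy both strands, while ribonucleotide reductase and other enzymes supply nucleotides and the CAF-1 complex and Uhrf1 restore chromatin. In the resting airway few epithelial cells divide, and club cells are known as cells that can re-enter the cycle after injury.

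Many of these genes are known targets of E2F factors, whose binding motif lies close to the transcription start. Promoter windows from RefSeq on GRCm38.p6, each covering 250 bases before and 50 after a start site, were found for 31 of the 37 genes, in 37 windows. The letters TTTCCCGC, TTTGGCGC, TTTCGCGC and TTTGCCGC were searched on both strands as the E2F motif. The 6 stretches printed here lie wholly before the start site of their own window and outside annotated exons. Each holds a match or an overlapping pair with 20 bases on each side. The Uhrf1 stretch comes from window 2 of that gene. It and the Cdc6 stretch lie inside the annotated span of their gene, which begins at 56303321 for Uhrf1 and 98907801 for Cdc6. They are printed because they show the motif both singly and as a pair of overlapping matches on opposite strands. Capitals mark the E2F letters, and each stretch reads 5′ to 3′ on the strand of the gene.
Mcm6, chr1:128359784-128359835, minus strand: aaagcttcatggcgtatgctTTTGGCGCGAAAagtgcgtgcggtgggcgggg
Mcm6, chr1:128359725-128359772, minus strand: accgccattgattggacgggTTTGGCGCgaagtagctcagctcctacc
Mcm5, chr8:75109336-75109387, plus strand: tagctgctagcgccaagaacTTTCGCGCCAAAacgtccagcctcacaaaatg
Cdc6, chr11:98907993-98908040, plus strand: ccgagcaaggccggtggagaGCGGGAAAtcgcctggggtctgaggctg
Uhrf1, chr17:56304108-56304155, plus strand: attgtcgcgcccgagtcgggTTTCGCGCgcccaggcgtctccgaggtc
Pola1, chrX:93632266-93632313, minus strand: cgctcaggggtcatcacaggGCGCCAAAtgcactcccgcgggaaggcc

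An E2F match was present in 13 of the 31 genes with a window, or 41.9%, against 2.6% of the 27025 symbols with a window in the whole table. Counted by window, the shares were 35.1% of the 37 windows of these genes and 2.26% of all 32851 windows of the same length. The 13 genes were E2f2, Cdc6, Cdt1, Mcm3, Mcm5, Mcm6, Mcm7, Gins3, Pola1, Pold1, Rfc3, Lig1 and Uhrf1, and origin licensing and the MCM helicase gave 6 of them. Of the 19 matches, 11 began before the start site and 11 lay within 100 bases of it, and 5 genes had 2 or more in a window. CCAAT, the letters of the NF-Y motif, stood in the windows of 17 of the 31 genes, or 54.8%, against 41.1% of all symbols. TTTGAA, the letters of the CHR element found in promoters of G2 and mitosis genes, stood in 5 of them, or 16.1%, against 20.2%. Windows of these genes had a median GC content of 60.0%, against 52.7% for all windows, and the part of GC content in the E2F shares was not tested. These are matches of letters in a fixed window and not measured binding.

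**Figure D1:**
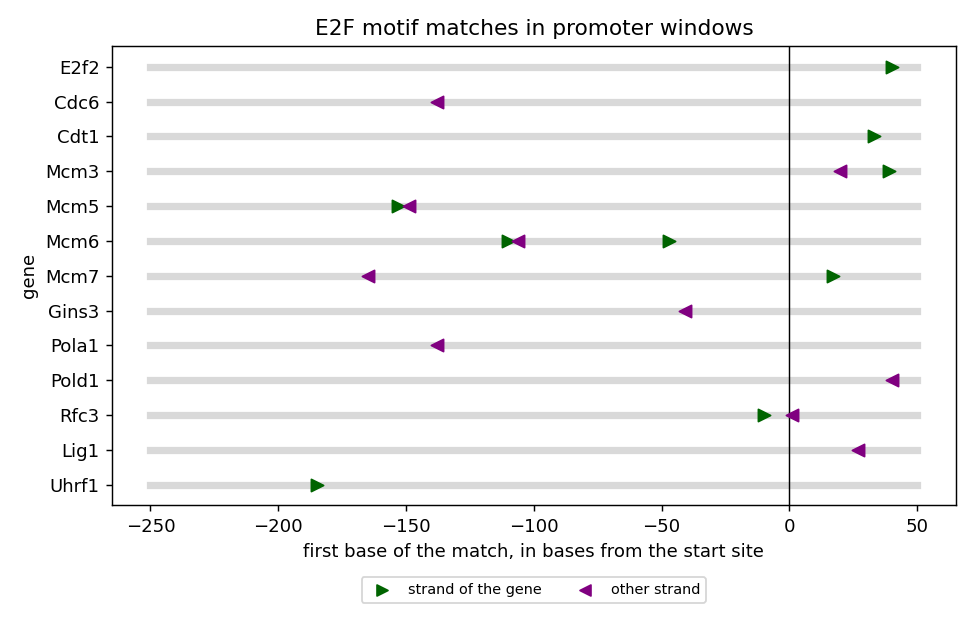
Positions of E2F letter matches in the promoter windows of the 13 genes that hold one. The x axis gives the first base of each match in bases from the start site, grey bars span the window, and arrowheads show the strand of the match. The 19 matches spread over the window, with 11 before the start site, and Mcm6 holds 3.

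The replication genes were expressed at modest levels. Per length of gene, in fragments per kilobase scaled to library size (FPKM), Pcna was the highest with a mean of 39.2 over the 8 libraries, followed by Gins4 with 15.8 and Mcm3 with 11.2. Mcm10 with 0.592 and Fen1 with 0.606 had the lowest values. The rank of Fen1 is uncertain, because 84.2% of the exon length used for its FPKM is shared with Gm10143 and Tmem258. Shared exons lose counts, so the value of Fen1 may understate its level. Apart from a comparison of the MCM subunits, all other levels are given as CPM, which corrects for library size but not for gene length, and are compared only between libraries of the same gene.

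Compared with the controls, 35 of the 37 genes had a fold change above 1 in the mutant libraries, with a median of 1.39-fold, or 0.47 on the log2 scale. Over all 16964 genes tested, 49.1% lay above 0 and the median log2 fold change was -0.0061. With edgeR's quasi-likelihood test and Benjamini-Hochberg adjustment over all genes, 3 of the 37 genes rose, which is 8.11% of them, and the share of all genes called higher was 5.45%. The genes that rose were Ccne1, Rfc4 and Rrm1. None of the 37 fell, against 2.36% of all genes called lower. The unadjusted p was under 0.05 for 1 of the 37 genes downward, E2f2, and for 20 upward. Of all 16964 genes tested, 2008 were lower and 2275 higher at that limit. DESeq2 called 13 of the 37 higher, or 35.1%, and 1 lower, against 6.94% and 4.71% of all genes to which it gave an adjusted p. With limma-voom 7 rose, or 18.9%, against 5.77% of all genes. The count of 3 changed when single libraries were left out: it was 23 without control 1, 2 without control 4 and 1 without mutant 4. It was 0 without control 2, without control 3 or without any 1 of mutants 1 to 3. The share of all genes called higher was 7.05% without control 4 and 3.36% without mutant 4. In the fits with 0 it was 3% to 4.07%, so few calls among 37 genes would stand at background there. In the edgeR fit of all 8 libraries the called share thus lay near the background, whereas 94.6% of the estimates lay above 0. With DESeq2 and with limma-voom the called share lay above the background. Without control 1, 62.2% of the 37 genes rose against 8.86% of all genes. Control 1 was the highest control in 33 of the 37 genes, so leaving it out raises their calls by itself. In 11 genes every mutant library lay above every control library, and 1 gene showed the reverse order. Over all genes tested these patterns were found in 9.75% and 7.07%. Without control 1 all mutants lay above the remaining controls in 28 of the 37 genes and in 15% of all genes. The choice of library raises the first of these counts in the same way.

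**Figure D2:**
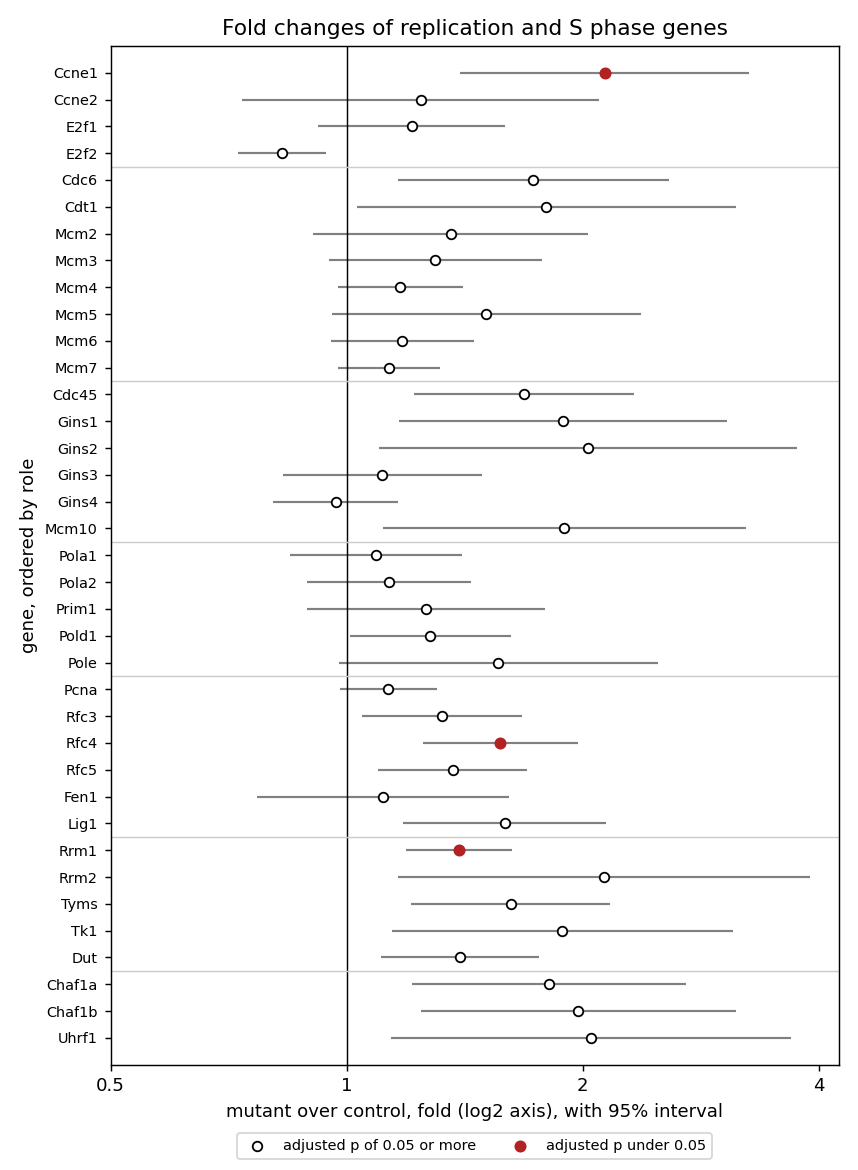
Fold change of each of the 37 genes, mutant over control, on a log2 axis, with 95% intervals from the edgeR fit on 4 libraries per group. Filled red points mark Ccne1, Rfc4 and Rrm1, and 35 of the 37 points lie to the right of 1, with E2f2 and Gins4 to the left.

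The control libraries differed widely among themselves in these genes. Control 1 had the highest control value in 33 of the 37 genes and control 3 the lowest in 25. Relative to the mean of the mutant libraries, the median level over the 37 genes was 0.940 in control 1, 0.641 in control 2, 0.527 in control 3 and 0.691 in control 4. Control 1 thus lay at the mutant level: it was at or above the lowest mutant library in 24 genes and above every mutant library in 5. The highest control exceeded the lowest by a median of 1.89-fold, from 1.202-fold to 4.09-fold, and by at least 2-fold in 16 genes. Among the mutant libraries the same ratio had a median of 1.32, reached 1.82 and was never 2 or more. The standard deviation of log2 CPM was larger in the controls for 36 of the 37 genes, or 97.3%, against 74.4% of all genes tested. Its median over the 37 genes was 0.407 in the controls and 0.188 in the mutants, against 0.217 and 0.128 over all genes. The wide spread was not particular to these genes. G2 and mitosis genes, described below, gave 0.704 and 0.325, and fork repair genes 0.447 and 0.163. Further fork and origin genes gave 0.1901 and 0.104, and RB, E2F and CDK regulators 0.225 and 0.116. Whole libraries differed too. The chi-square per gene was 4.76 between controls 2 and 3 and 35.9 to 45.4 between either and control 1 or 4. Controls 1 and 4 lay between these values. Mutant pairs gave 6.13 to 12.8.

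**Figure D3:**
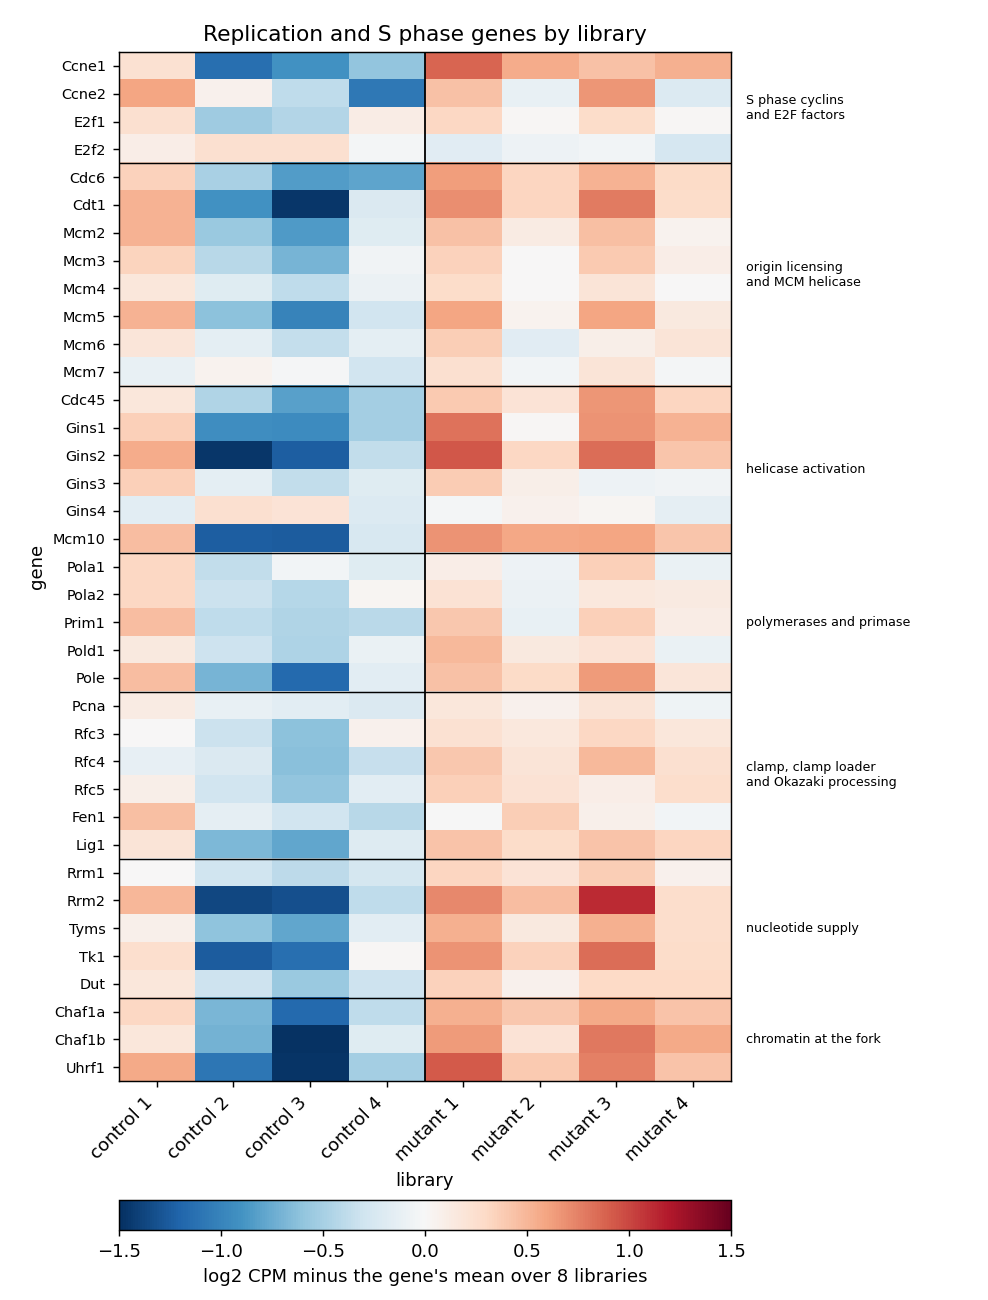
Level of each of the 37 genes in each library, as log2 CPM minus the mean of that gene over the 8 libraries. Rows are genes grouped by role, columns are libraries, blue is below and red above the mean. Controls 2 and 3 are the bluest columns, and control 1 resembles the mutant columns, of which mutants 1 and 3 are the 2 highest in 29 of the 37 genes.

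The number of calls followed the libraries that were kept. The 23 genes that rose without control 1 stood beside 8.86% of all genes, and the median change of the 37 was 0.65 on the log2 scale. Where none passed the edgeR threshold, 15 genes without control 2 and 16 without control 3 were higher at an unadjusted p under 0.05. Without mutant 1, mutant 2 or mutant 3 the corresponding numbers were 15, 19 and 14, and the gene called without mutant 4 was Rrm1. Over all genes, the number at an unadjusted p under 0.05 was counted only in the fit of all 8 libraries. The counts at that limit in fits with fewer libraries therefore have no background beside them and cannot be read as an excess. With controls 2 and 3 both left out, 0 genes rose, against 3.56% of all genes, 10 had an unadjusted p under 0.05 with higher values in the mutants, 32 of the 37 still had a fold change above 1 and the median was 1.201-fold. With controls 1 and 4 both left out, 29 rose and 2 fell, and the shares of all genes were 21.5% higher and 19.2% lower. Controls 1 and 4 had the highest control sums of the 37 genes and controls 2 and 3 the lowest. The counts in both fits therefore follow in part from the choice of libraries. The median change was positive in all of these fits, from 0.26 without controls 2 and 3 to 0.75 without controls 1 and 4 on the log2 scale.

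The sample descriptions end in a number whose meaning the labels do not give. The numbers of control 1 and mutant 4 are consecutive and stand apart from those of the other 6 libraries, which are all lower. The summed level of the 37 genes was 873.6 CPM in control 1, the highest control, and 803.8 CPM in mutant 4, the lowest mutant. Without these libraries 23 of the 37 genes rose, against 6.05% of all genes, and the median change was 0.76 on the log2 scale. As they were the highest control and the lowest mutant in these same genes, leaving them out widens the difference by itself. That fit therefore says nothing about the number. The part of whatever the number stands for was not tested.

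**Figure D4:**
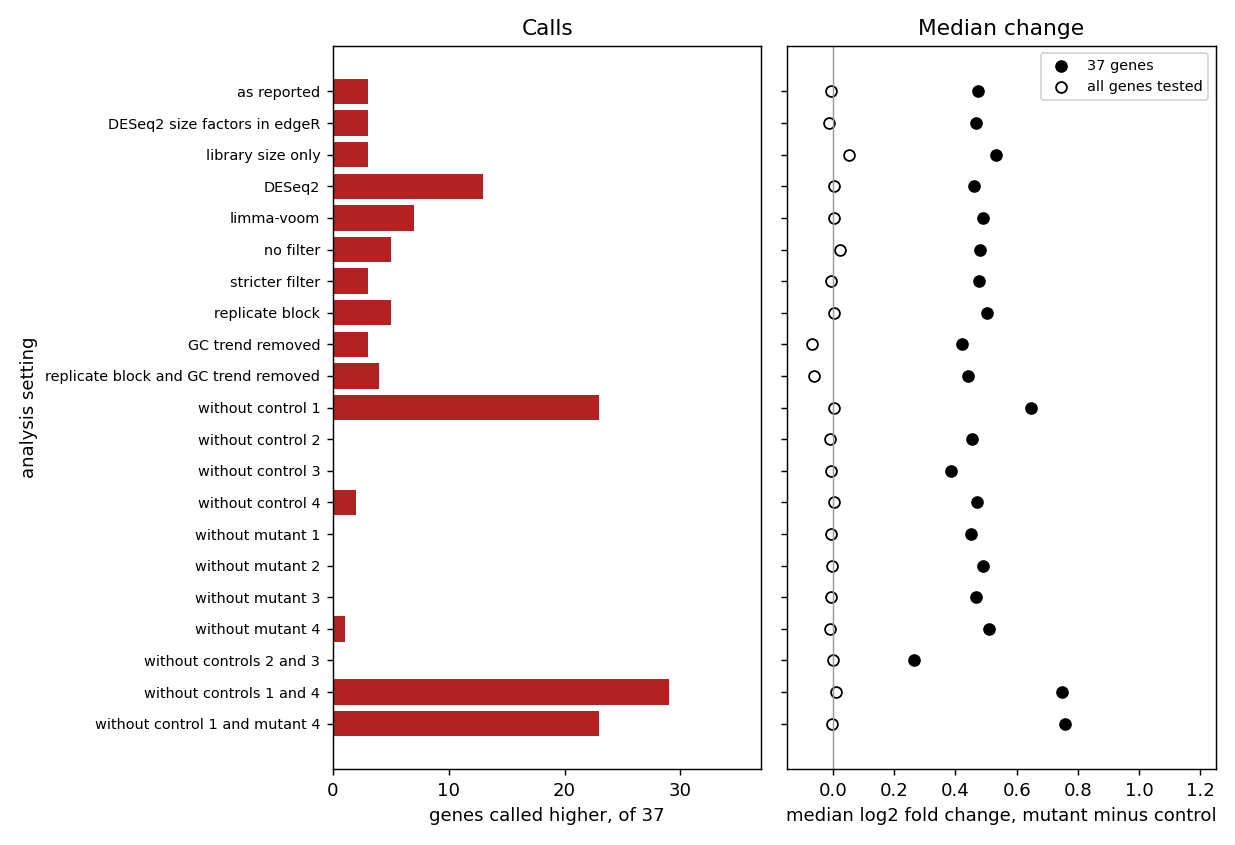
Number of the 37 genes called higher in mutant libraries (left) and median log2 fold change (right, filled for the 37 genes and open for all genes tested) under each analysis setting listed on the y axis. The bars run from 0 to 29 with the libraries kept, while the filled points lie above 0 in every setting.

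Markers of other cell types also differed between the control libraries. The 8 lymphocyte markers summed to 268.6, 133.3, 103.6 and 187.2 CPM in controls 1 to 4 and to between 148.4 and 196.8 CPM in the mutants, and none of the 8 passed the test in either direction. The leukocyte gene Ptprc was at 204.4 CPM in control 1 and between 64.1 and 101.0 CPM in the other controls, and all 8 lymphocyte markers had counts in every library. Neutrophil markers summed to 90.7, 38.4, 13.3 and 137.1 CPM in controls 1 to 4 and to between 91.4 and 95.05 CPM in the mutants, with none of 4 called. Controls 2 and 3, the lowest in replication genes, were thus the lowest in both marker sums. In other lists the order differed. Controls 2 and 3 were the highest controls in the club cell sum (31023 and 30155 CPM) and the alveolar type II sum (27769 and 28420 CPM). Control 3 had 754.5 CPM in macrophage and monocyte markers, above controls 2 and 4. Macrophage and monocyte markers summed to 630.7 to 788.7 CPM in controls and 977.7 to 1219 CPM in mutants, and 3 of 7 rose. Epithelial markers summed to 821.7 to 1044 CPM in controls and 1344 to 1489 CPM in mutants, and 3 of 5 rose, Epcam among them by 1.53-fold. Endothelial markers, which a depletion would remove, summed to 3407 to 4321 CPM in controls and 2808 to 3150 CPM in mutants. Pecam1, Cdh5 and Tek fell, all 6 endothelial markers had an unadjusted p under 0.05 with lower values in the mutants, and in 5 of the 6 the groups did not overlap. Mesenchymal markers summed to 2047 to 3118 CPM in controls and 2754 to 3411 CPM in mutants, groups that overlap, and 1 of 6 rose, the collagen gene Col3a1. The part of any of these cells in the replication genes was not tested, and in bulk RNA more cells in cycle and more RNA per cell cannot be told apart.

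Library totals ran from 15111663 to 21673654 counts, and a count of 0 allows a level of up to 3 counts, equal to 0.138 to 0.199 CPM, as far as counting error goes. Cdh1, the targeted gene, did not pass the test (log2 fold change 0.07 ± 0.09 SE, adjusted p = 0.648 with edgeR), with 321.8 to 428.4 CPM in controls and 395.9 to 409.8 CPM in mutants, and a sum over all exons cannot show whether floxed exons were lost. Of the club cell markers 4 of 7 fell, and their sum was 27953 to 31023 CPM in controls against 11980 to 14547 CPM in mutants. Alveolar type II markers, of cells that line the air sacs, summed to 19502 to 28420 CPM in controls and 21090 to 26603 CPM in mutants. Of these markers 0 of 6 were called (1 at an unadjusted p under 0.05, higher). Alveolar type I markers summed to 3654 to 4447 CPM in controls and 3751 to 3809 CPM in mutants, and 1 of 5, Rtkn2, fell. Basal cell markers, of the stem cells of larger airways, reached only 2.82 to 6.25 CPM in controls and 2.73 to 7.71 CPM in mutants.

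The S phase cyclins and E2F factors did not move as a group. Ccne1, the gene of cyclin E1, which drives entry into S phase, lies on chr7:38097984-38107534 of GRCm38, minus strand. It was at 4.77, 1.86, 2.17 and 2.72 CPM in controls 1 to 4 and at 7.48, 5.998, 5.55 and 5.89 CPM in mutants 1 to 4. All mutant libraries lay above all controls, with control 1 nearest to them. Ccne1 rose 2.13-fold (log2 1.09 ± 0.27 SE, adjusted p = 0.041 with edgeR), the largest estimate of the 37. Its adjusted p ran from 0.00231 to 0.128 when single libraries were left out, and of these 8 fits it passed only in the one without control 1. For the related cyclin E2 gene Ccne2, the controls spanned 2.72 to 8.62 CPM and the mutants 4.98 to 9.07 CPM, so the groups overlapped (fold 1.24, adjusted p = 0.596 with edgeR); 17.4% of its exon length is shared with Ints8, and reads over both genes were not counted.

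E2f1, the best known activator of the family, had 20.3, 11.9, 12.7 and 18.6 CPM in controls 1 to 4 and 21.4, 17.5, 20.9 and 17.5 CPM in mutants 1 to 4. Controls 1 and 4 reached the mutant range, and the change did not pass the test (1.21-fold, adjusted p = 0.360 with edgeR). Its relative E2f2 showed the opposite order, with 43.6, 48.3, 48.3 and 40.2 CPM in controls and 36.2, 38.8, 39.6 and 34.4 CPM in mutants. Every mutant library lay below every control library, and E2f2 was the only one of the 37 genes with that pattern. The log2 fold change of -0.28 ± 0.08 (SE) did not pass edgeR's threshold, with an adjusted p of 0.076. In E2f2 control 1 was not the highest control, and controls 2 and 3, the lowest for most of the other genes, were the highest.

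Among the 8 genes of origin licensing and the MCM helicase, none passed the test, all 8 had estimates above 0 and the median change was 1.33-fold. Mcm3 stood at 51.1, 30.4, 25.0 and 39.2 CPM in controls 1 to 4 and at 51.8, 40.8, 53.3 and 43.5 CPM in mutants 1 to 4. Control 1 was level with the highest mutants, and the other controls lay below all mutants (1.30-fold, adjusted p = 0.274 with edgeR). Mcm4 had 42.5, 33.3, 29.1 and 35.7 CPM in controls and 45.6, 37.9, 43.4 and 37.9 CPM in mutants, the same order over a narrower range (1.17-fold, adjusted p = 0.262 with edgeR). The helicase subunits did not spread equally among the controls: Mcm5 ran from 14.8 to 42.4 CPM and Mcm2 from 17.6 to 45.3 CPM, whereas Mcm7 ran only from 36.6 to 46.1 CPM.

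The products of Mcm2 to Mcm7 assemble into a ring with 1 copy of each, and their RNA levels per length were unequal. In all 8 libraries Mcm2 had the lowest FPKM of the 6 genes. The highest was Mcm3 in 6 libraries and Mcm7 in controls 2 and 3. The ratio of highest to lowest was 2.09 in control 1 and 2.20 to 2.47 in the mutants, and it was 3.37, 3.92 and 2.601 in controls 2, 3 and 4. Mcm7 shares 12.6% of its exon length with other genes, among them the microRNA genes Mir93 and Mir25. The loading factors Cdc6 and Cdt1 had larger estimates than the ring subunits, 1.73-fold (adjusted p = 0.093) and 1.80-fold (adjusted p = 0.178) in the edgeR fit. Cdt1 control values spanned 3.35 to 13.2 CPM.

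The 6 genes of helicase activation had a median change of 1.78-fold, and none passed the test. Cdc45, the factor that joins the MCM ring at the fork, was at 8.04, 5.23, 4.06 and 5.02 CPM in controls 1 to 4 and at 9.38, 8.23, 11.3 and 8.92 CPM in mutants 1 to 4. The groups did not overlap, although control 1 was close to mutant 2 (log2 0.75 ± 0.21 SE, adjusted p = 0.057 with edgeR). Gins4, a subunit of the GINS complex, had 19.0, 25.1, 24.4 and 18.4 CPM in controls and 20.8, 22.2, 21.7 and 19.3 CPM in mutants. Its mutant values lay inside the control range, with controls 2 and 3 highest, and its log2 fold change was -0.05 (adjusted p = 0.840 with edgeR). The other subunits of the same complex gave 1.89-fold for Gins1, 2.03-fold for Gins2 and 1.11-fold for Gins3, with adjusted p-values of 0.104, 0.144 and 0.649 in the edgeR fit. Differences between subunits were not tested. Gins2 shares 67.3% of its exon length with Gse1, so its counts rest on a minor part of the gene. Mcm10, needed for fork start, had a 1.90-fold estimate (adjusted p = 0.131 with edgeR).

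Of the 5 genes of the DNA polymerases and the primase none passed, and the median change was 1.26-fold. The catalytic subunit of polymerase delta, Pold1, was at 37.9, 27.5, 24.9 and 31.97 CPM in controls 1 to 4 and at 47.8, 37.8, 39.3 and 31.8 CPM in mutants 1 to 4. Mutant 4 fell within the control range and mutant 2 was just below control 1 (1.28-fold, adjusted p = 0.184 with edgeR). Pola2, the accessory subunit of polymerase alpha, had 33.2, 21.4, 19.9 and 27.4 CPM in controls and 31.3, 25.2, 29.97 and 29.4 CPM in mutants. Control 1 was above every mutant library for Pola2 (1.13-fold, adjusted p = 0.498 with edgeR). Prim1, the primase subunit that makes the RNA primer, was likewise highest in control 1, at 11.3 CPM, while the other controls lay between 5.996 and 6.27 CPM and the mutants between 7.58 and 10.9 CPM. Pola1 and Pole, the catalytic subunits of polymerases alpha and epsilon, had estimates of 1.09-fold and 1.56-fold, and neither passed.

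The clamp, the clamp loader and the enzymes that join Okazaki fragments gave 1 called gene of 6 and a median of 1.34-fold. Pcna, the clamp that holds polymerases on DNA, was at 102.3, 86.5, 84.0 and 81.0 CPM in controls 1 to 4 and at 105.2, 98.4, 107.0 and 89.3 CPM in mutants 1 to 4. Control 1 lay among the mutants, and the most highly expressed gene of the 37 per length had one of the smallest changes (1.13-fold, adjusted p = 0.263 with edgeR). Rfc4, a subunit of the clamp loader on chr16:23113943-23127737, minus strand, was at 5.68, 5.30, 3.997 and 4.87 CPM in controls and at 8.17, 7.09, 8.68 and 7.29 CPM in mutants. All 4 mutant libraries lay above all controls, and here control 1 did not stand apart from the other controls. Rfc4 rose 1.57-fold (log2 0.65 ± 0.15 SE, adjusted p = 0.027 with edgeR). With single libraries left out its adjusted p was 0.0152 to 0.0890 and it passed in 2 of the 8 fits, without control 1 and without control 4; 12.7% of its exon length is shared with Eif4a2.

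Rfc3 and Rfc5, partners of Rfc4 in the loader, also showed no overlap between the groups, with 1.32-fold and 1.37-fold estimates and adjusted p-values of 0.134 and 0.085 in the edgeR fit. Lig1, the ligase that seals Okazaki fragments, had 34.3, 18.8, 17.5 and 26.4 CPM in controls 1 to 4 and 40.4, 36.5, 40.6 and 37.5 CPM in mutants 1 to 4. The mutants lay close together above all controls (log2 0.67 ± 0.19 SE, adjusted p = 0.066 with edgeR). Fen1, the flap endonuclease that trims primers, was at 1.08 to 1.98 CPM in controls and 1.40 to 1.85 CPM in mutants. As 84.2% of its exon length is shared with Gm10143 and Tmem258, that value covers only a small part of the gene.

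All 5 genes of nucleotide supply had an unadjusted p under 0.05, with 1 called after adjustment and a median change of 1.62-fold. Rrm1, the large subunit of ribonucleotide reductase, lies on chr7:102441695-102469771, plus strand. It stood at 51.7, 42.1, 39.4 and 42.9 CPM in controls 1 to 4 and at 64.4, 59.8, 66.5 and 54.3 CPM in mutants 1 to 4. The groups did not overlap, and control 1 was the control nearest to the mutants. Rrm1 rose 1.39-fold (log2 0.47 ± 0.10 SE, adjusted p = 0.020 with edgeR). Its adjusted p ran from 0.00427 to 0.0761 over the fits without 1 library, and it passed in 3 of these 8, without control 1, control 4 or mutant 4.

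Rrm2, the small subunit of the same enzyme, whose RNA is tied to S phase, had 22.3, 6.13, 6.35 and 12.1 CPM in controls 1 to 4 and 26.1, 21.7, 34.3 and 18.9 CPM in mutants 1 to 4. Control 1 was above mutants 2 and 4, and the other controls lay well below. The estimate was larger than that of Rrm1, at 2.13-fold, but its standard error was 0.39 on the log2 scale and the adjusted p was 0.119 with edgeR. Dut, which removes dUTP, had 17.2, 12.3, 10.4 and 12.3 CPM in controls and 19.5, 16.0, 18.8 and 18.8 CPM in mutants, where only control 1 reached the mutant range (1.40-fold, adjusted p = 0.084 with edgeR). Tyms, the thymidylate synthase gene, and Tk1, the thymidine kinase gene, showed no overlap between groups, with 1.62-fold and 1.88-fold estimates and adjusted p-values of 0.054 and 0.116 in the edgeR fit.

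The 3 genes that restore chromatin behind the fork had the largest group median, 1.98-fold, and none passed, although all 3 had an unadjusted p under 0.05. Uhrf1, which reads hemimethylated DNA and recruits the maintenance methyltransferase, was at 31.0, 9.92, 7.58 and 14.7 CPM in controls 1 to 4 and at 39.7, 27.5, 35.5 and 28.2 CPM in mutants 1 to 4. Control 1 exceeded mutants 2 and 4, and its distance from control 3 was 4.09-fold, the widest among the 37 genes (2.05-fold between groups, adjusted p = 0.126 with edgeR). Chaf1b, a subunit of the histone chaperone CAF-1, had 6.79, 3.72, 2.17 and 5.33 CPM in controls and 9.44, 6.98, 10.5 and 9.01 CPM in mutants. The groups touched without overlap, with control 1 just below mutant 2 (log2 0.98 ± 0.30 SE, adjusted p = 0.077 with edgeR). Chaf1a, the large CAF-1 subunit, gave a 1.81-fold estimate without overlap (adjusted p = 0.077 with edgeR), and 52.5% of its exon length is shared with Ubxn6.

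**Figure D5:**
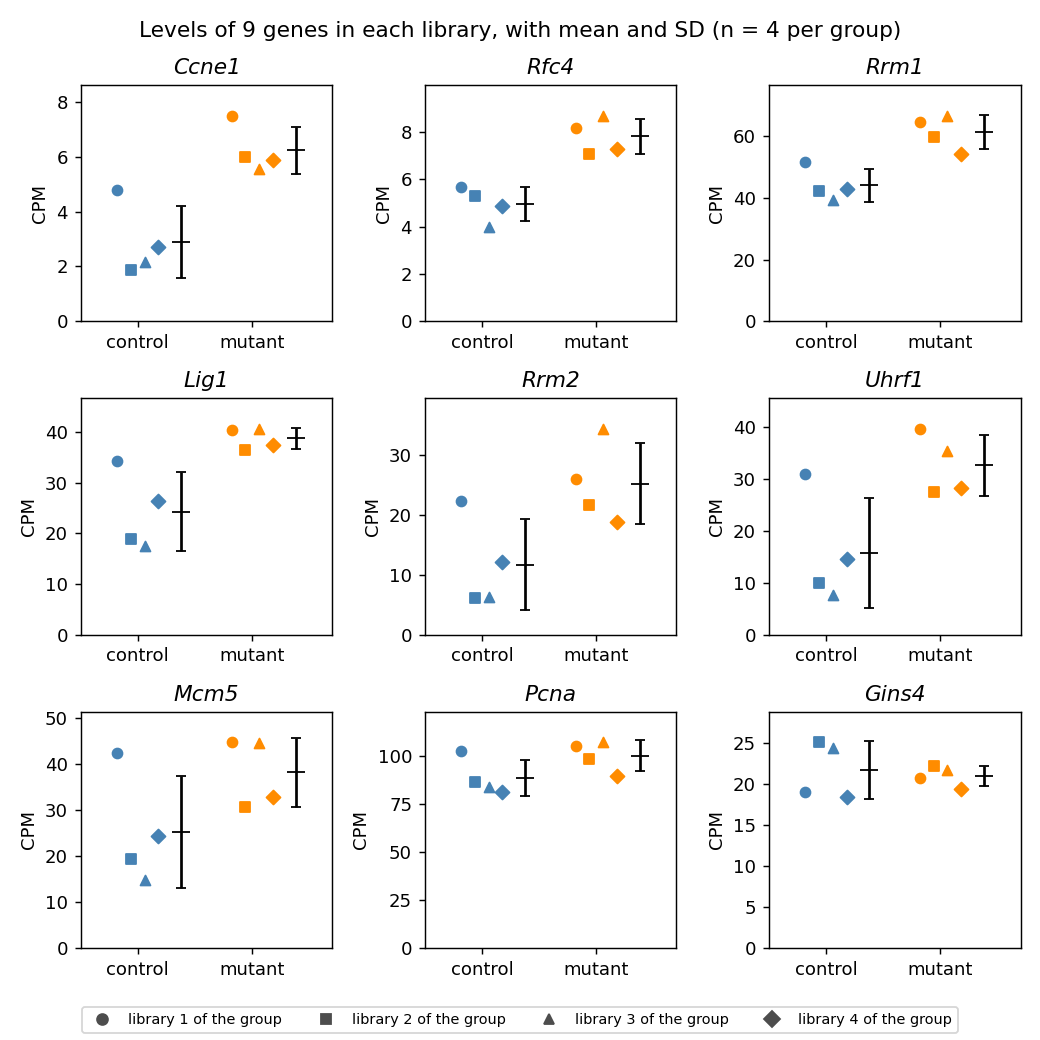
CPM of 9 genes in each library, with the mean and SD of each group (n = 4). Symbols give the number of the library within its group, and each y axis starts at 0. The circle of control 1 lies near the mutants for Rrm2, Uhrf1 and Mcm5 and with the other controls for Rfc4, and the groups of Pcna and Gins4 overlap.

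Genes with and without E2F letters in their window were compared as a description. The 13 with a match had a median log2 fold change of 0.38, from -0.28 to 1.04, and none of them passed the edgeR threshold. The 18 with a window and no match had a median of 0.57, from 0.15 to 1.09, and held all 3 called genes. Ccne1, Rfc4 and Rrm1 lacked these letters in the window examined, which says only that the letters were not found there. With the shorter core TTCCCGC or TTGGCGC, searched on both strands, Rfc4 and Rrm1 held a match and Ccne1 did not. The 18 genes with the shorter core had a median log2 change of 0.44, and the 13 without it 0.48.

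Few other genes of the pathway passed the test. Of 48 further replication fork and origin genes, 1 rose, or 2.08%, against 5.45% of all genes. At an unadjusted p under 0.05, 10 of the 48 were higher and 1 lower, against 2275 and 2008 of all 16964 genes tested. After adjustment 0 fell, and the median change was 0.14 on the log2 scale, with 36 above 0. The gene that rose was Dbf4, the activator of the Cdc7 kinase that fires licensed origins, at 9.23 ± 1.58 CPM in controls and 14.7 ± 1.31 CPM in mutants (SD, n = 4 each; 1.59-fold, adjusted p = 0.016 with edgeR). Orc1, the largest subunit of the origin recognition complex, had a 2.17-fold estimate that did not pass (adjusted p = 0.056 with edgeR). Among 28 regulators of the RB, E2F and CDK system, 0 fell and the median log2 change was 0.01. At an unadjusted p under 0.05, 7 of them were higher and 4 lower. In that list 2 genes rose, or 7.14%, near the share of all genes. These were Ccna1, a cyclin A gene also known from multiciliated cells, which rose 13.5-fold (adjusted p = 0.001 with edgeR), and E2f7, a repressor of the E2F family, which rose 2.90-fold (adjusted p = 0.026 with edgeR). In the multiciliated marker list, 6 of 8 genes rose, and their sum was 515.4 to 677.0 CPM in controls and 721.6 to 915.0 CPM in mutants; its part in Ccna1 was not tested.

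G2 and mitosis genes had the larger estimates. Of 24, 7 rose, or 29.2%, against 5.45% of all genes. In this list 0 fell, all 24 had estimates above 0, and the median change was 2.20-fold. At an unadjusted p under 0.05, 21 of the 24 were higher and 0 lower. Aurka, Cdc20, Plk1 and Kif20a, which act in spindle assembly, exit from mitosis and cytokinesis, rose 2.45-fold, 2.77-fold, 2.99-fold and 2.30-fold, with adjusted p-values of 0.004, 0.005, 0.008 and 0.018 in the edgeR fit. The proliferation marker Mki67 was at 94.1, 21.1, 11.7 and 42.4 CPM in controls 1 to 4 and at 98.8, 79.6, 129.7 and 65.9 CPM in mutants 1 to 4. Control 1 again lay among the mutants, and Mki67 did not pass the test (2.19-fold, adjusted p = 0.222 with edgeR). Of 17 genes of fork repair, 1 rose, or 5.88%, near the share of all genes. At an unadjusted p under 0.05, 12 of the 17 were higher and 0 lower, against 2275 and 2008 of all 16964 genes tested. After adjustment 0 fell, and the median was 1.45-fold. The called gene was Fanci, of the Fanconi pathway, with a 2.65-fold increase (adjusted p = 0.009 with edgeR). The difference between these lists and the replication genes was not tested, and all lists were read from the same 8 libraries.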

How the data were processed

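The labels name both a stranded mRNA kit and TruSeq RNA V2 for the same libraries. The deposited table holds raw counts of read pairs per gene; per the file headers, the authors made it with featureCounts 1.6.2 on GENCODE release M25 of GRCm38, without using strand, and without counting reads that mapped to several places or covered more than 1 gene. STAR, Bowtie2 and Cufflinks appear in the submitters' processing notes with no role given. Without strand, antisense reads count towards a gene, and exons shared between genes lose reads. The share of exon length that each of the 37 genes shares with other genes was computed from the exons listed in the deposited table, and 11 of the 37 shared any. Symbols came from GENCODE M21, which matched 99.53% of identifiers. The 37 genes were given by name, and the members, role groups, other lists, named genes and alternatives were chosen with earlier results of these data known.

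Low genes were removed by filterByExpr at a minimum count of 10 and a minimum total of 15, and TMM scaling followed. Groups were compared with edgeR 4.0.16 in R 4.3.3 (quasi-likelihood test, robust fit, group as the only term), with Benjamini-Hochberg adjustment over all genes tested and a threshold of 0.05. Standard errors were derived from the F statistic, FPKM from the gene lengths in the table. No pair of libraries within a group agreed within sampling noise. The script was tested on simulated data before use. Every library's value is given for the called genes and, whether called or not, for the 2 genes of each role group with the highest mean FPKM; from other pathway lists at most 4 genes with the lowest p were named, and Mki67. Values of single libraries for Prim1, Mcm2, Mcm5, Mcm7, Cdt1, Fen1 and Ccne2 were added after they were seen. Alternatives were other scaling, DESeq2 1.42.0, limma-voom (limma 3.58.1), other filters, the replicate number as a block, removal of a GC trend, leaving out libraries, and a shorter E2F core.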

Additional observations from a re-analysis of the deposited data

Results flagged for a closer look

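In 1 of the 74 groups examined (37 genes in controls and in mutants), the value of 1 library stood apart from the other 3. Prim1, the primase subunit, was at 11.3 CPM in control 1, and the gap to the next control was above the 95% limit of Dixon's test for 4 values. The mutant libraries ran from 7.58 to 10.9 CPM. Chance alone flags about 1 in 20 groups.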

How the results depend on the processing

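With all 8 libraries kept, the count of the 37 genes called higher (3) became 13 with DESeq2, 7 with limma-voom, 5 without a filter and 5 with the replicate block; of genes called lower (0), it became 1 with DESeq2 and 1 with the block and a removed GC trend. Leaving out controls 2 and 3 gave 0 higher, leaving out controls 1 and 4 gave 29 higher and 2 lower, and leaving out control 1 with mutant 4 gave 23 higher at a median log2 change of 0.76. Leaving out 1 library gave 0 to 23 higher, 0 to 1 lower, a median log2 change of 0.39 to 0.65, and 11 to 28 genes without overlap upward; scaling by library size alone left 0 without overlap downward. Over all genes, calls were 924 higher and 401 lower; lower calls were 884 with DESeq2, 709 with the GC trend removed (809 higher) and 672 with the block as well, 625 without control 1 and mutant 4, and 223 with controls 2 and 3 left out. Without controls 1 and 4 there were 3750 higher and 3338 lower, and leaving out 1 library gave 515 to 1517 higher and 146 to 1117 lower. The shorter E2F core (TTCCCGC or TTGGCGC) was in 18 of 31 genes and 7.79% of all symbols. Estimates that changed sign were those of Gins4 (0.018 by library size alone, 0.028 without control 2, 0.015 without control 3, 0.17 without controls 2 and 3) and, without controls 2 and 3, E2f1 (-0.012), Gins3 (-0.014), Pola1 (-0.0066) and Pola2 (-0.064). Of the other estimates for single genes, 617 kept direction and side of the threshold, 92 passed it only in the alternative and 23 lost it; beyond the fewer samples in some fits, the cause was not tested. Replicate numbers did not pair the libraries throughout: deviations of same-numbered libraries correlated at 0.0066, 0.13, -0.12 and 0.13. Controls 2 and 4 correlated best with the mutant of the same number, control 1 with mutant 3 and control 3 with mutant 2. The block is given for its count alone. Genes near 1 CPM, such as Fen1, rest on the fewest counts.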
